A study of Mus musculus with 2 samples.

Results

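Called peaks of NF-E2 p45 were examined around 5 genes of oxidative and xenobiotic defence, Nqo1, Hmox1, Gclm, Txnrd1 and Srxn1, in cultured mouse megakaryocytes, the large bone marrow and fetal liver cells from which platelets are shed. For each gene, every peak of the p45 list that overlapped a fixed window of mouse build mm9 by at least 1 bp was taken, and 8 of the 1651 peaks in the list were found in this way. Whole livers of C57BL6 fetuses at embryonic day 13.5 were dissociated and grown with thrombopoietin at 50 ng/ml, and the megakaryocytes were taken on day 3 of culture. The fetuses were wild-type and no other treatment is named. Chromatin was fixed with 1% formaldehyde for 10 min, precipitated with an antibody to p45, and sequenced, and 1 further library, the input, was made without antibody. There was 1 library per group and no replicate, so no value below has a spread between replicates, no difference could be tested over samples, and a peak is a property of 1 p45 library. Megakaryocyte purity was not analysed here, since peaks do not measure marker expression.

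NF-E2 is a dimer of p45, a basic leucine zipper protein of the CNC family found in blood cells, and a small Maf protein. Nrf2, the main activator of genes against oxidants and electrophiles, is another CNC protein that pairs with small Maf proteins, and the elements known for the NF-E2 and Nrf2 dimers are closely related. The element best known for Nrf2 is the antioxidant response element, whose core is written TGACNNNGC. The NF-E2 element is a longer sequence built around a core of the form TGANTCA. The 5 genes are well known Nrf2 targets. They are described here in the order of detoxification (Nqo1, Hmox1), glutathione (Gclm) and the thioredoxin and peroxiredoxin systems (Txnrd1, Srxn1).

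Reference promoter sequence shows what letters of this kind lie close to the genes' starts. The RefSeq table of build GRCm38.p6 matched 4 of the 5 genes with 6 start sites: 1 each for Nqo1, Gclm and Srxn1 and 3 for Txnrd1. It held no entry for Hmox1, so no Hmox1 promoter was searched. The 250 bases before each start were searched on both strands for exact matches. TGACNNNGC was found once before Gclm and once before the second of the 3 Txnrd1 starts, and in 10.2% of all 32851 promoter sequences of that length. The NF-E2 element, searched as 1 exact sequence of 10 bases, was found before none of the 6 starts and in 0.134% of all promoters. TGANTCA, a looser form of its inner part TGAGTCA, reads the same on both strands. This pattern, an AP-1-like core and so not particular to NF-E2, was added as a search of its own after these sequences had been seen. Each match of the NF-E2 element is by its letters also a match of TGANTCA and, on the opposite strand, of TGACNNNGC. TGANTCA was found at 2 places before Srxn1, before none of the other 5 starts and in 6.75% of all promoters. Capitals mark the matches in the 3 promoters that had one. All 3 genes lie on the plus strand of GRCm38.p6, and each promoter is printed 5′ to 3′ along the gene, ending at the base before the start. The TGACNNNGC matches of Gclm and Txnrd1 are on the opposite strand, so their capitals read as the reverse complement, GCNNNGTCA.
Gclm: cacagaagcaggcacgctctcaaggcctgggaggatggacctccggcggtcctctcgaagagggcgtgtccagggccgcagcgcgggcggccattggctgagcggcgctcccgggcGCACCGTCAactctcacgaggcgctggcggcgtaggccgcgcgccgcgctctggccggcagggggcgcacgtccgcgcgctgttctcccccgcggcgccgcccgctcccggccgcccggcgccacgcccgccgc
Txnrd1: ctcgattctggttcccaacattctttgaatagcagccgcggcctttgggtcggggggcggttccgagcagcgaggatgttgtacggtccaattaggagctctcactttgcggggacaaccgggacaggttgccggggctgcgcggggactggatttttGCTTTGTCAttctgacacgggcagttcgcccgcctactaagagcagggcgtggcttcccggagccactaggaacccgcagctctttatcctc
Srxn1: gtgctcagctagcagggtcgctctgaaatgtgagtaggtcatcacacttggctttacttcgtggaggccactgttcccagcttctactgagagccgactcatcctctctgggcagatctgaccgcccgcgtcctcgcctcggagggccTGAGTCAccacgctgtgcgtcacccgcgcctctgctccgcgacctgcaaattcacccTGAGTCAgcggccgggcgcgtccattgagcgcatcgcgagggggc
These are reference sequences of another build than the peaks, so whether a peak covers any of these bases was not analysed here. A match is no measured p45 site, and an element outside these 250 bases would not be seen. The sequence under the peaks was not analysed here.

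Peaks of p45 were called in 4 of the 5 windows: 3 at Txnrd1, 2 at Nqo1, 2 at Hmox1, 1 at Srxn1 and none at Gclm. The windows were 110 to 150 kb long and 0.61 Mb in all, and held 13.1 peaks per Mb, against 0.66 per Mb over the 2493 Mb between the first and last peaks of chromosomes 1 to 19 and X. As a background, these spans were divided into adjoining tiles of the same lengths. A peak was present in 6.62% of tiles of 110 kb (Hmox1, Srxn1), in 7.16% of tiles of 120 kb (Nqo1, Gclm) and in 8.78% of tiles of 150 kb (Txnrd1). The tiles take no account of genes, while each window was laid around a gene, so the tiles are not a background of like regions. The windows were also chosen with earlier results of these data known, so part of the difference may come from that choice. With 1 library and windows chosen in this way, the difference was not tested.

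Windows with more than 1 peak were those of Nqo1, Hmox1 and Txnrd1, 3 of 5. At least 2 peaks lay in 0.499% of tiles of 110 kb, 0.597% of tiles of 120 kb and 0.873% of tiles of 150 kb. At least 3 peaks, as in the Txnrd1 window, lay in 0.138% of tiles of 150 kb, or 23 of 16609. Peaks with scores of at least 100 lay in 2 of the 5 windows, those of Txnrd1 and Hmox1, and in 1.92% of tiles of 110 kb, 2.11% of tiles of 120 kb and 2.63% of tiles of 150 kb. Both peaks of the Hmox1 window had such scores. A tile of 110 kb with 2 or more such peaks occurred 14 times among 22654, or in 0.0618%. These limits of 2 or 3 peaks were set after seeing what the windows held. The windows themselves were chosen with earlier results known, so the small shares are a description and were not tested.

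**Figure D1:**
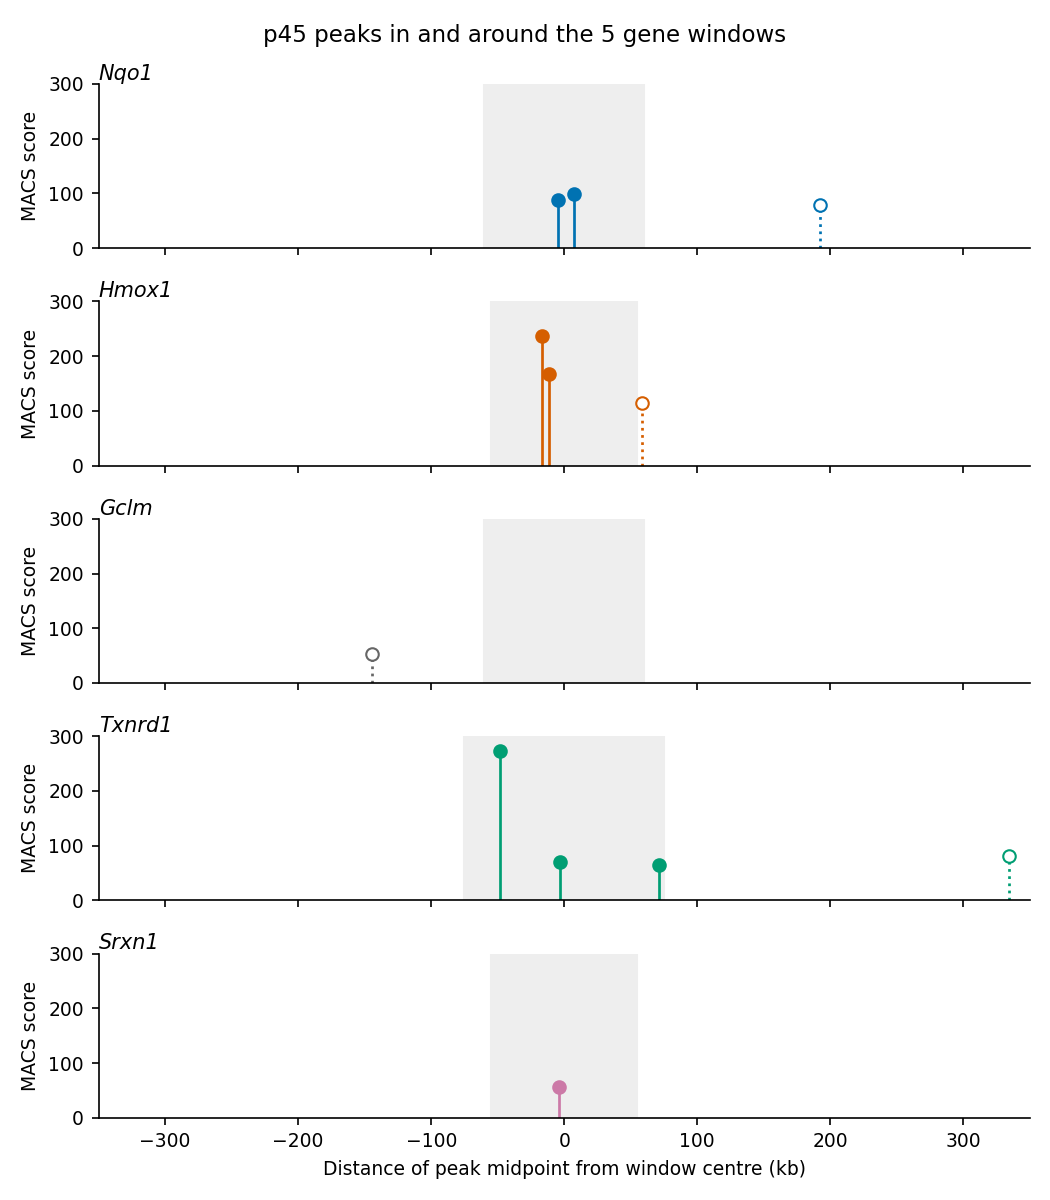
Peaks of p45 around each gene, plotted by the distance of the peak midpoint from the centre of the window (kb) against the score that the authors deposited. Shading marks the window, filled points are peaks inside it and open points with dotted lines are peaks outside it: the 2 highest points are the first peaks of Txnrd1 (272.72) and Hmox1 (237.63), and the shaded area of Gclm is empty.

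Nqo1 encodes a cytosolic quinone reductase that turns quinones into hydroquinones. Its window on chromosome 8, from 109860000 to 109980000, held 2 peaks near its middle. The first, of 579 bp from 109914963 to 109915541, had a score of 88.43, which placed it at rank 602 of 1651 by score, shared by 3 peaks. The second, of 542 bp from 109927278 to 109927819, had a score of 98.61 and rank 468, shared by 2 peaks. Both peaks were above the median score of the list, 76.44, and below 100. The gap between them was 11.7 kb. Outside the window, the nearest peaks were 1.42 Mb before it (score 63.82) and 132 kb after it (score 79.26), so the pair stood alone over a long stretch on the lower side.

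The 2 Nqo1 peaks were also the only ones of the 8 with lengths from 540 to under 590 bp. This range of 50 bp is the most frequent in the list, with 434 peaks or 26.3%, and the 2 of 8 here are 25.0%. The sources used here do not say whether duplicate reads were removed before peaks were called, and their part in these narrow peaks was not tested. Without all peaks of this length, a step added after the data were seen, the Nqo1 window would be empty and 3 windows with 6 peaks would remain.

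Hmox1 encodes the inducible heme oxygenase, which splits heme into biliverdin, carbon monoxide and iron, and is known for distal upstream enhancers with several antioxidant response elements. Its window on chromosome 8, from 77570000 to 77680000, held 2 peaks that both ranked high. The first, of 899 bp from 77607572 to 77608470, had a score of 237.63 and rank 75, and 95.5% of the list scored lower. The second, of 610 bp from 77613324 to 77613933, had a score of 167.01 and rank 166, and 89.9% of the list scored lower. On chromosome 8, with 87 peaks, they were the second and the fifth by score. Of the 5 windows, this was the only one in which every peak scored at least 100.

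The gap between the Hmox1 peaks, 4.85 kb, was among the shortest of the list, where 25 of the 1626 gaps between adjacent peaks were shorter. A further peak of 724 bp lay just outside the window, from 77683488 to 77684211, 3.49 kb beyond its end and 69.6 kb after the second peak. It had a score of 113.58 and rank 360, higher than both Nqo1 peaks. On the other side the nearest peak was 2.90 Mb before the window, with a score of 53.29. Whether the 2 peaks lie at the known enhancers was not analysed here.

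Gclm encodes the modifier subunit of glutamate-cysteine ligase, the enzyme of the first and rate-limiting step of glutathione synthesis. Its window on chromosome 3, from 121900000 to 122020000, held no called peak. The nearest was a weak one of 830 bp from 121814724 to 121815553, 84.4 kb before the window, with a score of 53.66 and rank 1495. After the window the next peak started 6.35 Mb away, at 128371526, with a score of 76.44. The window thus lay within one of the longer stretches without a peak, and 81 of the 1626 gaps between adjacent peaks in the list were longer. Gclm is also one of the 2 genes with a TGACNNNGC match among the promoters printed above. Such a match is held by 10.2% of all promoters, and a link between it and the missing peak was not tested. A missing peak says only that the caller's limit was not reached in this library. The lowest score in the list was 50.04, and the depth of the library is unknown, so a weaker signal at Gclm was not separated from none.

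Txnrd1 encodes the cytosolic thioredoxin reductase, a selenoprotein that uses NADPH to keep thioredoxin reduced. Its window on chromosome 10, from 82250000 to 82400000, held 3 peaks of very unequal score. The first, of 754 bp from 82276604 to 82277357, had a score of 272.72 and rank 52, the highest of the 8, with 96.9% of the list scored lower. Among the 81 peaks of chromosome 10 it was the second by score. The second, of 780 bp from 82321528 to 82322307, had a score of 70.17 and rank 957. The third, of 643 bp from 82395696 to 82396338, had a score of 65.09 and rank 1127, shared by 21 peaks. Both of these were below the median score of the list.

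Inside the windows, the Txnrd1 peaks were also spread more widely than those of Nqo1 and Hmox1, with gaps of 44.2 and 73.4 kb. This contrast depends on the window edges, and the Txnrd1 window was the longest, at 150 kb. The peak just outside the Hmox1 window followed the second Hmox1 peak after a gap of 69.6 kb. The third Txnrd1 peak ended 3.66 kb before the end of its window, so a window drawn slightly shorter would have left it out. The first peak lay 26.6 kb from the start of the window. The nearest peaks outside were 1.24 Mb before the window (score 56.36) and 259 kb after it (score 80.30).

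Srxn1 encodes sulfiredoxin, which restores over-oxidised peroxiredoxins. Its window on chromosome 2, from 151880000 to 151990000, held 1 peak. It was the longest of the 8 and had the lowest score: 1045 bp from 151930841 to 151931885, with a score of 56.44 and rank 1407, so that 14.8% of the list scored lower. By length it ranked 103 of 1651. No other peak lay within 894 kb, the nearest being 1.48 Mb before the window (score 63.32) and 894 kb after it (score 54.78). Srxn1 is the gene with 2 TGANTCA matches in the promoter printed above. That search was added after these sequences had been seen, and 6.75% of all promoters hold a match. A link between these matches and the peak was not tested.

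**Figure D2:**
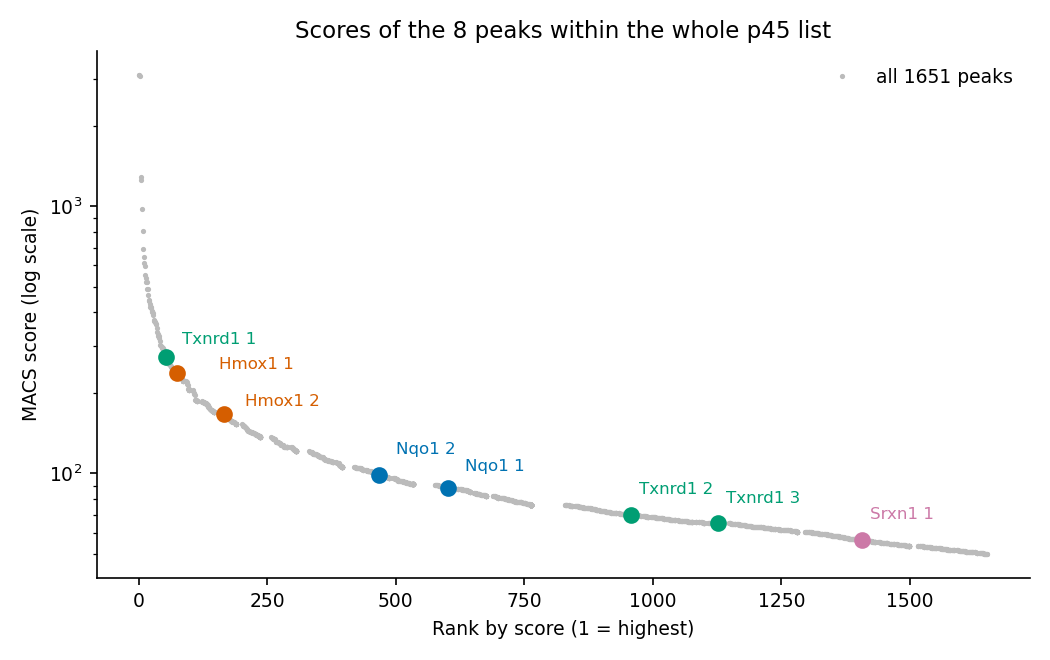
Score of every p45 peak (log scale) against its rank in the list of 1651, with the 8 peaks of the gene windows coloured and numbered by their order along the chromosome. The first Txnrd1 peak and both Hmox1 peaks lie on the steep part at ranks 52, 75 and 166, and the other 5 lie between ranks 468 and 1407.

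The 8 peaks lay between ranks 52 and 1407 of the 1651 by score. Their scores went from 56.44 to 272.72 with a median of 93.5, against 76.4 for the other 1643 peaks. At least 100 was reached by 3 of the 8 (37.5%) and by 457 of the others (27.8%). The list's median score was reached by 5 of 8 (62.5%) and by 50.1% of the others. These shares rest on 8 peaks from 4 windows, are given as a description, and were not tested. By score the windows were ordered Txnrd1, Hmox1, Nqo1 and Srxn1 when each was taken at its highest peak. With no replicate library it is not known which neighbours in this order differ.

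Peak length did not follow that order. The 8 peaks measured from 542 to 1045 bp with a median of 698 bp, against 648 bp for the other peaks. The longest, at Srxn1, had the lowest score, and the 3 peaks with the highest scores measured 754, 899 and 610 bp.

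**Figure D3:**
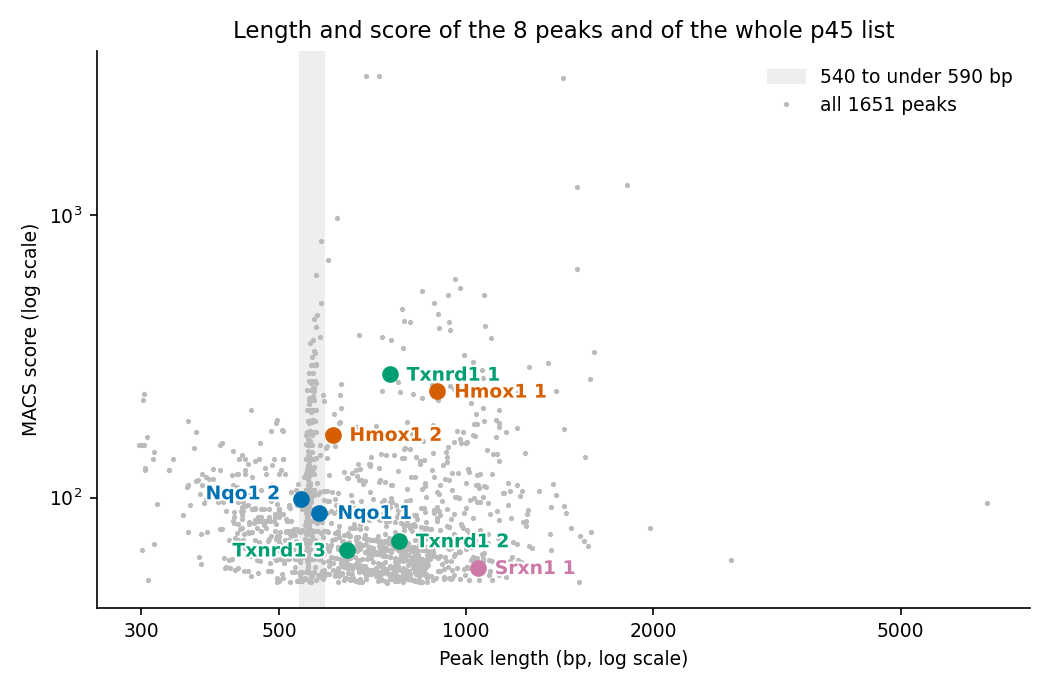
Length (bp) and score of each p45 peak, both on log scales, with the 8 peaks of the gene windows coloured and the length range of 540 to under 590 bp shaded. The 2 Nqo1 peaks are in the shaded range, and the Srxn1 peak is the longest and lowest of the 8.

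Spacing within the windows was short beside that of the whole list. The median gap between adjacent peaks of a chromosome was 621 kb over 1626 gaps, and the 4 gaps inside the windows were 4.85 kb (Hmox1), 11.7 kb (Nqo1), 44.2 kb and 73.4 kb (Txnrd1). A gap inside a window cannot exceed the window's length, at most 150 kb, so the choice of windows itself placed these gaps below that median. The shares that follow are a description only. The share of all gaps shorter than each was 1.54% for Hmox1, 2.83% for Nqo1, and 7.26% and 11.1% for Txnrd1.

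**Figure D4:**
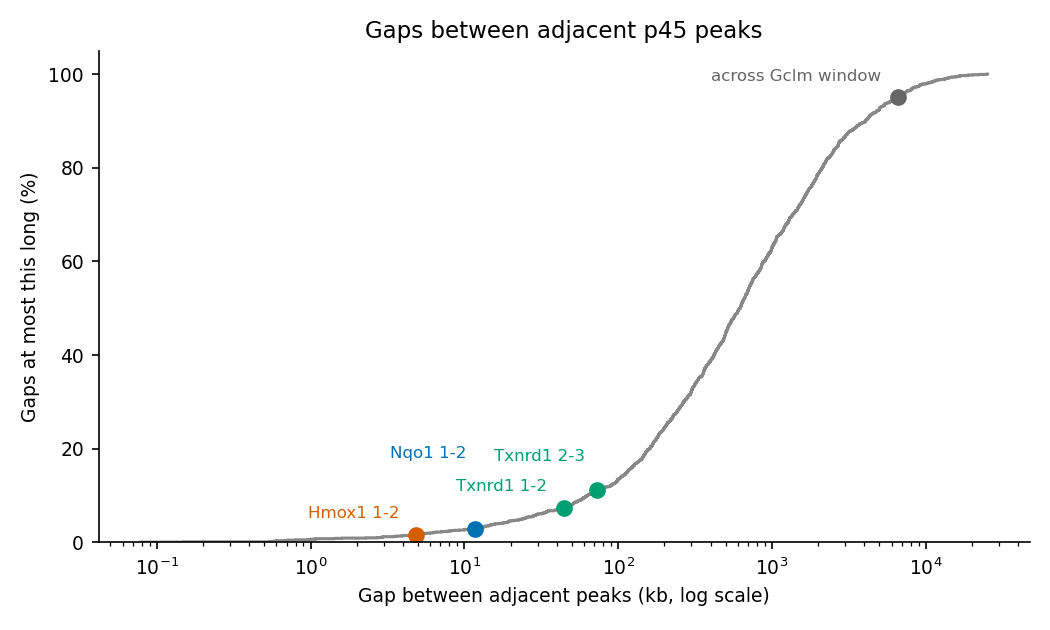
Cumulative share of the 1626 gaps between adjacent p45 peaks by gap length (kb, log scale), with the gaps inside the windows and the gap that spans the Gclm window marked. Those of Hmox1 (4.85 kb) and Nqo1 (11.7 kb) are the 2 leftmost marked points and the one across Gclm is at the upper right, where 81 gaps are longer.

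The windows are wide enough to hold other genes. The order used below is by start position on the chromosome, so a neighbour may overlap the gene or lie within it. By gene order in RefSeq's table, of build GRCm38.p6, the protein-coding neighbours of Nqo1 are Nfat5 and Nob1, those of Hmox1 are Tom1 and Mcm5, and those of Gclm are Abca4 and Dnttip2. Next to Txnrd1 in this order are Nfyb and Eid3, and next to Srxn1 are Scrt2 and Tcf15. Which of these lie inside the mm9 windows, and whether a peak lies in a promoter, exon, intron or UTR of any of them, was not analysed here. A peak is therefore given to a window, not to a gene.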

How the data were processed

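Chromatin immunoprecipitation and sequencing was performed on 1 p45 library and 1 input library, per the labels. The peak list of the p45 library was used, with 5 columns (chromosome, start, end, name and score). The submitters' processing notes name mm9 as the build. MACS appears as the caller in the deposited peak names, and a control is named in the title of the list. The sources used here do not give the aligner, the version and settings of MACS, the treatment of duplicate reads or the library totals. Each peak's score is the authors' own value on a scale that is not stated. It served only to order and describe these peaks (rank 1 is the highest, and ties share the better rank). Starts were taken to be zero-based and are printed 1-based.

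The windows and gene lists were chosen with earlier results of these data known. Peaks that overlapped a window by 1 bp or more were taken. Tiles were laid from the first to the last peak of chromosomes 1 to 19 and X. The overlap and tile counts were tested on simulated peaks and recovered in 50 of 50 runs. The genes named are the 5 members, with each peak of their windows and the nearest peak on either side. The distances to gene starts and the second gene list fixed in the design need an mm9 annotation and were not run. Alternatives were wider windows, peak midpoints, higher scores, a shifted grid, ranks within a chromosome and, added after the data were seen, leaving out the most frequent lengths. For tile shares and ranks, settings were compared by exact Clopper-Pearson 95% intervals, which cover only counting error. The counts of windows and of peaks were compared by their ratio, without an interval. The work was done in Python 3.11.15 with NumPy 2.4.6, pandas 2.3.3, SciPy 1.17.1 and matplotlib 3.10.9.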

Additional observations from a re-analysis of the deposited data

How the results depend on the processing

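The count of 4 windows with a peak was 4 with windows widened by 50 kb on both sides or with peak midpoints, 5 when widened by 100 kb, which took in the weak peak before Gclm, and 3 with peaks from the median score upwards. With only scores of 100 or more it was 2 (Hmox1 and Txnrd1). The 8 peaks were 9 and 10 in the wider windows, 8 by midpoint, 5 from the median score upwards and 3 with scores of 100 or more. The share of tiles with a peak moved with the same thresholds. From the median score upwards it was 3.40% (110 kb), 3.70% (120 kb) and 4.58% (150 kb), and with scores of 100 or more it was 1.92%, 2.11% and 2.63%. These lower counts follow from taking fewer peaks. A grid moved to the middle of the tiles gave 6.48%, 7.08% and 8.60%. Ranked within its own chromosome, the share of peaks with a lower score was 66.7% and 79.3% for the Nqo1 peaks (63.4% and 71.6% in the whole list), 97.7% and 94.3% for the Hmox1 peaks, 27.2% for the third Txnrd1 peak (30.5%) and 20.0% for the Srxn1 peak. For the first (97.5%) and second (40.7%) Txnrd1 peaks it stayed within the interval of the whole list. That interval leaves out the counting error of the fewer peaks on 1 chromosome, so it cannot show whether a rank differs there. Distances to gene starts were not run. No paired analysis was possible because each group has 1 library. Without tag counts, the depth behind a peak or its absence is unknown.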
